A study of Drosophila melanogaster with 2 samples.

Results

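The annotation of Drosophila melanogaster (dm6 coordinates, Ensembl release 115) holds 262 genes of biotype pre_miRNA, each a microRNA (miRNA) hairpin precursor. All genes of that biotype were taken, whatever their values. Of these, 260 lie on the chromosome arms (2L, 2R, 3L, 3R, X and the small arm 4), among 17683 annotated genes there, and these 260 were analysed. The other 2 lie on an unplaced scaffold and were not used. The annotated hairpins are 50 to 174 bp long, with a median of 92 bp. Precursors of 1 strand within 10 kb of each other were joined into loci, which gave 203 loci.

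A miRNA is cut from a long primary transcript. The Drosha and Pasha complex releases the hairpin in the nucleus, Dicer-1 with Loquacious cuts it to a short duplex in the cytoplasm, and 1 strand is loaded into Argonaute 1, which with GW182 represses messenger RNAs that pair with the miRNA's seed. Many precursors lie in introns or exons of host genes and are transcribed from the host's promoter, so the 5' end of a hairpin is a processing site and not a transcription start site.

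The measurement was ChIP-seq (immunoprecipitation of sheared chromatin, then sequencing) for the protein CG7101 in entire adult females of unknown age. All flies came from a transgenic line that stably carries CG7101 with green fluorescent protein (GFP) at its C-terminus, and the antibody recognised GFP. A single group of 2 biological replicates was studied, with no second genotype, treatment or tissue to compare. A whole fly mixes all cell types, so weak binding in many cells and strong binding in few cells cannot be told apart. Each replicate and the pooled replicates had 30000 deposited peaks, and 6486 peaks passed the authors' threshold on the irreproducible discovery rate (IDR), a measure of agreement between replicates. A summit is the position within a peak that the authors' peak caller marked as its point of highest signal. Signal is the authors' peak strength, whose scale is not stated, and is compared here only within 1 list.

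The mature sequences below are those of precursors on which the results turn: 1 family that shares a seed and had summits at several loci, the pair at the strongest summit, and well-studied miRNAs with a summit at the start of their primary transcript. The let-7 sequence is shown as a member without such a summit. The mir-305 sequence is shown with its neighbour mir-275, and its hairpin lies past the annotated end of the mir-275 host. The annotation names bantam mir-ban and let-7 mir-let7. Sequences are from the RefSeq annotation of the Release 6 assembly, 5' to 3', with the seed (bases 2 to 8) in capitals.
mir-2a-1 (3p): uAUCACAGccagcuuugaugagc
mir-2b-2 (3p): uAUCACAGccagcuuugaggagc
mir-2c (3p): uAUCACAGccagcuuugaugggc
mir-13a (3p): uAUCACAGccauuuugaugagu
mir-13b-2 (3p): uAUCACAGccauuuugacgagu
mir-279 (3p): uGACUAGAuccacacucauuaa
mir-996 (3p): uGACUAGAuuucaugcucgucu
bantam (3p): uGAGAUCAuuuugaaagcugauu
mir-282 (5p): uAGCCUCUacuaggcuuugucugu
mir-275 (3p): uCAGGUACcugaaguagcgcgcg
mir-305 (5p): aUUGUACUucaucaggugcucug
mir-276a (5p): cAGCGAGGuauagaguuccuacg
mir-277 (3p): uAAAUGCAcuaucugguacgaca
mir-34 (5p): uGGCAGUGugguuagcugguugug
let-7 (5p): uGAGGUAGuagguuguauagu

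The genomic sequence at 7 summits near precursors is shown as 151 bases centred on the summit, plus strand, Release 6 assembly. Words searched on both strands are in capitals: TATCGATA (the DNA replication-related element), TATAAA (the TATA box) and GAGAGA (the word of GAGA factor). CAGCTG and GGTCACACT were searched too and are absent from these 7 windows. The first is the strongest summit near any precursor and holds no searched word in the 151 bases shown, although a TATAAA lies within 100 bp of the summit, and the CCT2 and mir-318 windows are the ones with TATCGATA.
mir-279 and mir-996, start of CR31044, chr3R:29214367-29214517: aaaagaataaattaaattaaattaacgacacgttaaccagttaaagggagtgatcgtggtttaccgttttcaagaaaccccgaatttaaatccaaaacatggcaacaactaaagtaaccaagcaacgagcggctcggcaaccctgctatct
mir-282, start of CR43626, chr3L:3250100-3250250: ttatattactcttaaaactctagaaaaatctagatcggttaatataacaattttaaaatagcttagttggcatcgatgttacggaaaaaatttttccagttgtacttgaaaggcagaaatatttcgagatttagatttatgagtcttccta
mir-275 and mir-305, chr2L:7425274-7425424: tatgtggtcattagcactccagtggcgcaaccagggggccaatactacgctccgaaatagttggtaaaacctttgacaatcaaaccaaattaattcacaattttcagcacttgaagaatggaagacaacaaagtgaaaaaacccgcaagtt
mir-277 and mir-34, start of CR43459, chr3R:10093563-10093713: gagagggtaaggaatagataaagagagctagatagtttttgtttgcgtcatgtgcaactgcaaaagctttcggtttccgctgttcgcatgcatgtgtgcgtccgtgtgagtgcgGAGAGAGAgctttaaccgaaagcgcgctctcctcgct
mir-13b-2, start of CCT2, chrX:9089441-9089591: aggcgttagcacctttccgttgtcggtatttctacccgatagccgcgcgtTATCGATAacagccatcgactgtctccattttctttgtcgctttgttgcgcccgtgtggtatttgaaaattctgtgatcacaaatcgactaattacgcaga
mir-318 and mir-994, chr3R:10407233-10407383: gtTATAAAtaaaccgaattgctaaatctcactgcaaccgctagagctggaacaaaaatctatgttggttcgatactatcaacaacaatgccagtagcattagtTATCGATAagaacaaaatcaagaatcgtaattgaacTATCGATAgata
mir-9377, intron of Tis11, chrX:12665565-12665715: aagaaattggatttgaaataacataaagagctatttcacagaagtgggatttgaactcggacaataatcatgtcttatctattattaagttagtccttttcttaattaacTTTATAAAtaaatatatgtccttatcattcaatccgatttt

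Few miRNA hairpins lay next to a strong CG7101 summit, and more had one within 2 kb upstream. An IDR summit lay within 500 bp of the hairpin's 5' end at 19 of 260 precursors (7.31%, exact 95% Clopper-Pearson interval 4.46% to 11.2%, which covers counting error only), against 26.3% of all annotated genes. These 19 precursors fall in 18 of the 203 loci (8.87%). An IDR summit lay 0 to 2 kb upstream at 54 precursors (20.8%, 16.0% to 26.2%), against 28.8% of all genes. In the longer pooled list, 70 precursors (26.9%, 21.6% to 32.8%) had a summit within 500 bp, against 55.0% of all genes, and 110 (42.3%, 36.2% to 48.6%) had one 0 to 2 kb upstream, against 58.3%. The pooled list also holds weak peaks, with q values of up to 0.290. All these shares lie below those of all genes, most of which are protein-coding genes whose annotated 5' end is a start site.

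Other gene classes give the scale. Within 500 bp, IDR summits were found at 30.9% of protein-coding genes, 9.72% of long noncoding RNA (lncRNA) genes and 11.4% of tRNA genes. The interval for miRNA precursors covers the lncRNA value, and lies below the protein-coding value; that of tRNA genes (7.96% to 15.6%) overlaps it. Upstream and downstream differed in number: 54 precursors had an IDR summit 0 to 2 kb upstream and 23 (8.85%) had one 0 to 2 kb downstream. The corresponding shares were 32.1% and 14.7% for protein-coding genes, 55.8% and 14.5% for small nucleolar RNA (snoRNA) genes, which also lie mostly within hosts, and 13.6% and 14.1% for lncRNA genes. In the pooled list the sides were closer, with 110 precursors upstream and 100 downstream.

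**Figure D1:**
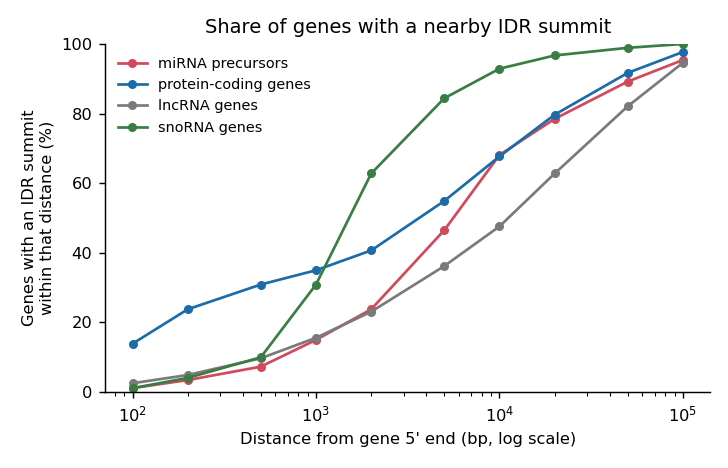
Share of genes (%) with an IDR summit within a given distance (bp, log scale) of the annotated 5' end, for miRNA precursors, protein-coding, lncRNA and snoRNA genes. At 500 bp the miRNA line is the lowest of the 4 (7.31%), it stays near the lncRNA line to 2 kb and meets the protein-coding line by 10 kb (68.1%).

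The nearest IDR summit lay at a median of 5606 bp from a precursor (quartiles 2064 and 15792 bp), against 3788 bp for protein-coding genes and 11420 bp for lncRNA genes. The nearest pooled summit lay at a median of 1540 bp. At the far end, 83 precursors had no IDR summit within 10 kb, and 24 had no pooled summit within that distance. The farthest was mir-2279, in an intron of MFS17, with its nearest IDR summit at 1964182 bp and its nearest pooled summit at 11946 bp. In 142 precursors neither list used here held a summit within 500 bp or 2 kb upstream. An IDR summit fell inside the annotated hairpin itself at 2 precursors, mir-4962 and mir-11182, and a pooled summit did so at 8.

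For IDR summits, intronic precursors had shares close to those of the others, and in the pooled list their shares were higher. Of the 260, 112 lay in an intron of a longer gene on the same strand and 148 did not. The 148 comprised 73 overlapping an exon of a host on the same strand (41 in lncRNA genes and 32 in protein-coding genes), 27 antisense to a gene and 48 intergenic. Within 500 bp, 9 intronic precursors (8.04%, 3.74% to 14.7%) and 10 of the others (6.76%, 3.29% to 12.1%) had an IDR summit. For 0 to 2 kb upstream the counts were 24 (21.4%, 14.2% to 30.2%) and 30 (20.3%, 14.1% to 27.7%). The median distance to the nearest IDR summit was 4872 bp for intronic and 6827 bp for other precursors. In the pooled list 36 intronic precursors (32.1%) and 34 others (23.0%) had a summit within 500 bp, and 57 (50.9%, 41.3% to 60.5%) and 53 (35.8%, 28.1% to 44.1%) had one upstream. The intervals overlapped in each of these pairs, and no difference between the classes was tested.

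**Figure D2:**
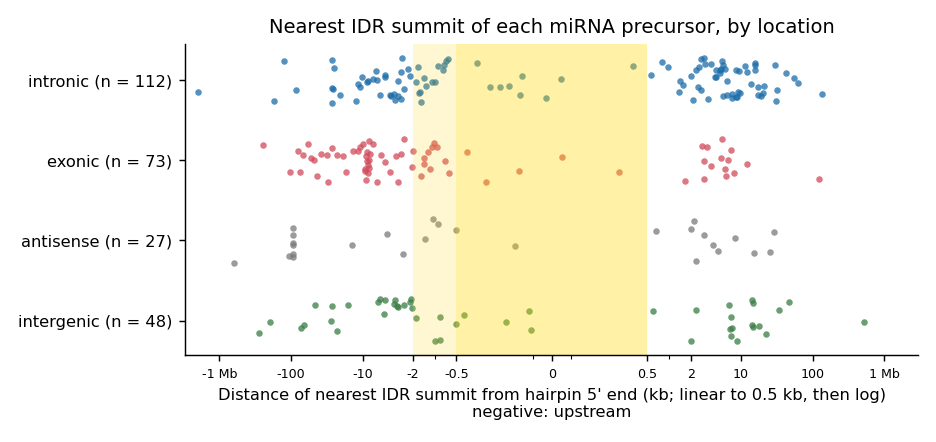
Signed distance (kb, linear to 500 bp and logarithmic beyond) of the nearest IDR summit from each precursor's 5' end, 1 point per precursor, by location; shading marks 500 bp on either side and the rest of the 2 kb upstream. All 4 classes spread from under 500 bp to over 10 kb, with 9 of 112 intronic, 5 of 73 exonic, 1 of 27 antisense and 4 of 48 intergenic precursors within 500 bp.

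The strongest summits within 500 bp lay mostly in protein-coding hosts. The highest belonged to mir-9377 (chrX), in an intron of Tis11, a protein that binds AU-rich elements and promotes messenger RNA decay. It had a pooled signal of 1172.7, with 578.0 in replicate 1 and 586.0 in replicate 2, at 423 bp downstream of the hairpin's 5' end and 5106 bp from the nearest start site, so the summit was distal to the host promoter. Next was mir-275 (chr2L) with 736.6 (390.4 and 344.1 in replicates 1 and 2), 446 bp upstream of the hairpin. Then came mir-966, in an intron of Pfas, an enzyme of purine synthesis, with 591.8 (330.3 and 268.1). Its summit lay 393 bp upstream of the hairpin and 56 bp upstream of the Pfas start site, so here hairpin and host promoter shared 1 summit. The intronic mir-4962, in the kinase gene Tlk, had a summit of 446.8 (232.5 and 201.8) inside its hairpin, 46 bp past the 5' end. These 4 ranked between 286 and 1439 of the 30000 pooled peaks.

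The other 15 precursors within 500 bp had signals from 145.4 to 338.6, against a range of 142.0 to 11013.1 and a median of 245.3 over all IDR summits. Above that median were mir-9378, intronic in CG17124 (338.6, 154 bp upstream), and mir-4949, intronic in ATPsynC, which encodes a ring subunit of the mitochondrial ATP synthase (292.9, 269 bp upstream). The neighbours mir-982 and mir-303 on X shared 1 summit of 208.6, which lay 60 bp upstream of the start of CG3626. The others, in order of signal, were mir-11182 (195.2), mir-4957 (193.5), mir-9370 (175.4), mir-4980 (174.4), mir-956 (170.8), mir-4977 (161.4), mir-279 (155.7), mir-4974 (155.1), mir-314 (147.9), mir-14 (147.0) and mir-4975 (145.4). Several of these sat on a promoter of a protein-coding gene: mir-4980 at CanB2, a calcineurin subunit (10 bp upstream of its start), mir-9370 at FucT6 (2 bp), and mir-4957, antisense to the topoisomerase gene Top1 (139 bp upstream). The 18 different summits had a median signal of 184.4, and 8 of them (44.4%) lay within 500 bp of the start site of a gene other than a miRNA, against 62.7% of all IDR summits.

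Just outside the 500 bp window were mir-2496 at 505 bp (signal 225.3), mir-274 at 506 bp (328.3), mir-92a at 565 bp (716.8), mir-305 at 604 bp (316.3) and mir-282 at 638 bp (456.8). The 5 nearest to the limit inside it were mir-982 at 459 bp (208.6), mir-275 at 446 bp (736.6), mir-9377 at 423 bp (1172.7), mir-966 at 393 bp (591.8) and mir-9370 at 352 bp (175.4). The signals on the 2 sides of the limit overlapped.

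All 57 IDR summits counted in either window overlapped a peak in both replicates. The IDR list selects for agreement between replicates, so this overlap follows from the selection and is no separate support. The median signal of the 57 was 208.6. Of the 57, 35 (61.4%) lay at a promoter, close to the 62.7% of all IDR summits. Some weak summits differed in rank between the replicates, each of which ranks 30000 peaks. The summit at mir-4957 had a signal of 158.7 (rank 2685) in replicate 1 and 40.9 (rank 11309) in replicate 2, and that 225 bp upstream of mir-279 had 89.2 (rank 5676) and 66.5 (rank 6647). At the mir-14 hairpin replicate 2 was the higher, with 89.7 (rank 4579) against 54.3 (rank 10013). The ranks of the strong summits were closer, with 26 and 27 for the summit 1143 bp upstream of mir-279 and 364 and 230 for mir-9377.

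**Figure D3:**
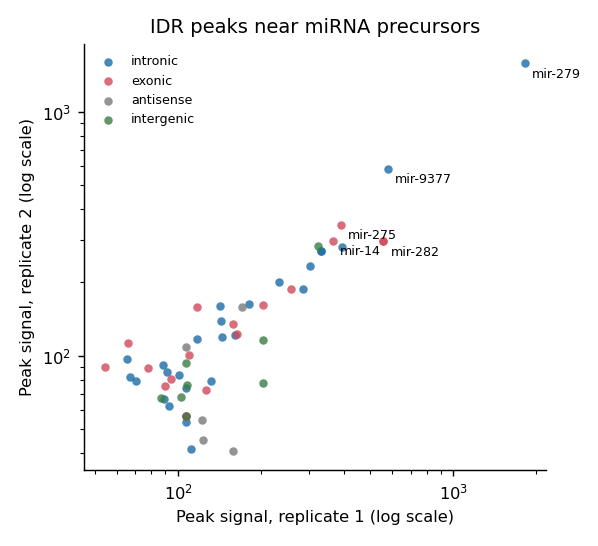
Peak signal in replicate 1 (x, log scale) and replicate 2 (y, log scale) for the IDR summits within 500 bp or 2 kb upstream of a precursor, coloured by the precursor's location. The summit 1143 bp upstream of mir-279 stands highest (1816.9 and 1580.4), followed by mir-9377 (578.0 and 586.0), while the weaker points scatter more widely.

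Start sites of host genes carried IDR summits more often than the hairpins inside them. A host was counted by any of its start sites and a hairpin by its single 5' end, so hosts with several starts had more windows. Of the 112 intronic precursors, 58 (51.8%, 42.1% to 61.3%) had a host with an IDR summit within 500 bp of a start site, or 48 of 100 hosts counted once. Among protein-coding hosts of intronic precursors 47 of 94 (50.0%, 39.5% to 60.5%) had one, against 33.3% of all protein-coding genes. These hosts are longer and have more start sites than other genes: a median of 14201 bp and 2 start sites, against 2166 bp and 1. Among hosts with a single start site 13 of 35 (37.1%) had an IDR summit, against 26.8% of protein-coding genes with a single start site. The part of host length and of the number of start sites in the result was not tested further. The host's summit was often far from the hairpin, at a median of 4920 bp, and within 2 kb for 18 of the 58 precursors.

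Start sites also exceeded hairpins for exonic precursors, again with any start site of the host counted. Of the 32 in exons of protein-coding genes, 18 (56.2%, 37.7% to 73.6%) had a host with a start-site summit. Of the 41 in exons of lncRNA genes, 11 (26.8%, 14.2% to 42.9%) had one, from 10 of 28 such hosts (35.7%, 18.6% to 55.9%), against 9.92% of all lncRNA genes. Many of these lncRNAs are the annotated primary transcripts of the miRNAs. Their hairpins themselves had an IDR summit within 500 bp in only 2 of 41 cases (4.88%). The lncRNA hosts were not compared with all lncRNA genes in length or number of start sites. The part of these in the 35.7% against 9.92% was not tested.

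**Figure D4:**
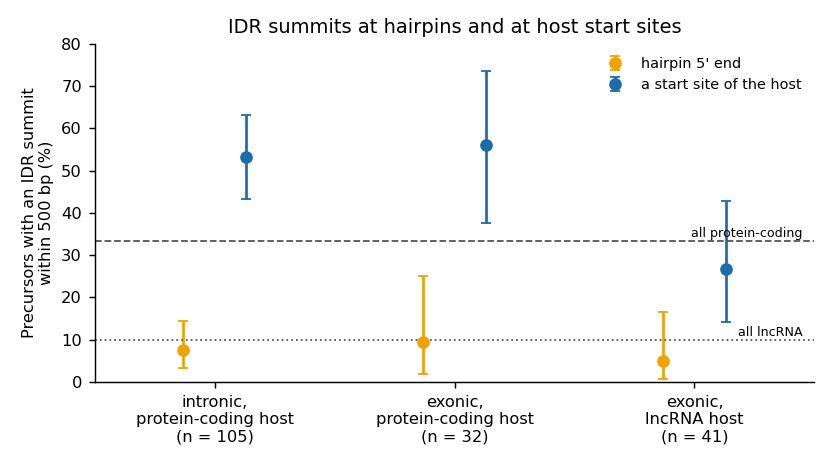
Share of precursors (%) with an IDR summit within 500 bp of the hairpin's 5' end (orange) and of any start site of the host gene (blue), with exact 95% intervals for counting error; lines give all protein-coding genes (33.3%) and all lncRNA genes (9.92%). Hosts with several start sites have more windows than a hairpin. In each host class the share at host start sites is higher than at hairpins: 53.3% against 7.62%, 56.2% against 9.38% and 26.8% against 4.88%.

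The strongest summit at any host was at lncRNA CR31044, from which mir-279 (chr3R:29215585-29215684, plus strand) and mir-996 are processed, both intronic. These 2 miRNAs share the seed GACUAGA and act together in the formation of carbon dioxide sensing neurons. The summit lay 120 bp upstream of the CR31044 start, with a signal of 3386.0, 1816.9 in replicate 1 and 1580.4 in replicate 2, and ranked 24 of the 30000 pooled peaks. It lay 1143 bp upstream of mir-279. A weaker IDR summit (155.7) lay 225 bp upstream of mir-279 and 1824 bp upstream of mir-996, and another of 1007.6 lay beyond the annotated end of the 5106 bp transcript. The third precursor with this seed, mir-286, lies in the mir-309 cluster and had no IDR summit in either window.

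Summits at the starts of 10 further lncRNA hosts were weaker. That of CR43626, the host of mir-282, had 842.2 (556.6 and 294.8 in replicates 1 and 2), and a further summit of 456.8 in the same peak region lay 638 bp upstream of the hairpin. The 842.2 summit lay 419 bp upstream of an internal start, within the annotated gene. That of CR43651, the host of mir-14, a regulator of fat metabolism and cell death, had 634.2 (366.1 and 295.7), 30 bp upstream of the start and 948 bp upstream of the hairpin. Hsromega, the heat shock lncRNA that holds mir-4951, had 535.9. CR43650, the host of mir-8, a miRNA of the miR-200 family that promotes growth, had 447.5 (256.8 and 187.3). That summit too lay upstream of an internal start, by 176 bp. Those 4 summits ranked between 526 and 1436 among the pooled peaks.

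Lower in the IDR list were the hosts of mir-275 (CR43857, 332.6), mir-276a (CR46006, 280.2), mir-277 and mir-34 (CR43459, 243.9), bantam (CR43334, 230.2), mir-184 (CR44206, 205.0) and mir-bft (CR43314, 157.3). At bantam, a growth-promoting miRNA that represses the cell death gene hid, the start-site summit had signals of 108.8 and 134.5 in replicates 1 and 2 and lay 13815 bp from the hairpin. Along the 15466 bp transcript there were 5 more IDR summits, of which the strongest (356.3) lay 1419 bp upstream of the hairpin. At the cluster of mir-277, which targets branched-chain amino acid breakdown, and mir-34, known for its role in ageing of the brain, the only IDR summit on the transcript was at its start, 123 bp upstream. There, pooled summits outside the IDR list lay 406 bp upstream of mir-277 (52.9) and 289 bp upstream of mir-34 (128.3). At mir-276a, which acts in olfactory memory, the summit lay 14 bp upstream of 1 of several starts of CR46006 and 1223 bp upstream of the hairpin. At mir-184, which acts in the female germline, the summit lay 4 bp from a start and 7838 bp from the hairpin. The mir-275 and mir-305 locus differed, since its strongest summit (736.6) lay inside the host, 1529 bp past the CR43857 start and 446 bp upstream of mir-275. The mir-305 hairpin lies past the annotated end of CR43857.

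**Figure D5:**
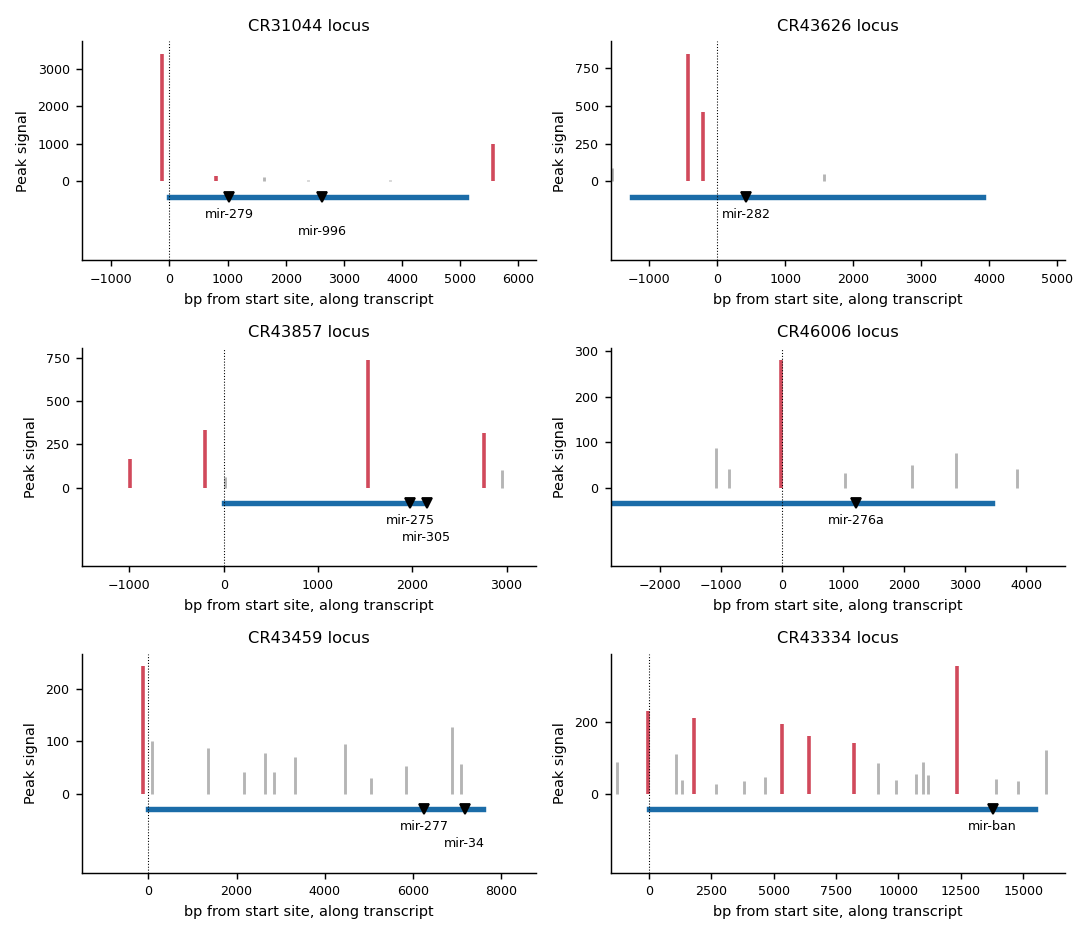
The loci of 6 lncRNA hosts drawn along the transcript from the start site nearest the host's summit (0, dotted): red lines are IDR summits and grey lines other pooled summits, with height the pooled peak signal; the blue bar is the annotated lncRNA and triangles are hairpins. The 6 were drawn from the lncRNA hosts with an IDR summit within 500 bp of a start, so each map shows one there by choice. Hosts without such a summit are not drawn. In the CR43857 map the highest summit (736.6) stands between start and hairpins.

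Primary transcripts of other well-known miRNAs had no IDR summit within 500 bp of a start. These were the host of let-7, mir-100 and mir-125 (let7C), which act in the passage to the adult, and those of the muscle miRNA mir-1 (CR45361), of mir-9a (CR45916), of mir-10 (CR42651) and of the Hox cluster miRNAs mir-iab-4 and mir-iab-8. At let7C the nearest IDR summit lay 561 bp from a start, just outside the window, and a pooled summit within it had a signal of 84.8. At mir-10, mir-iab-4 and mir-iab-8 the nearest IDR summits to the hairpins lay 102981, 124888 and 124821 bp away. The host of the mir-309 cluster (CR44504), 8 precursors that clear maternal messenger RNAs in the embryo, had its nearest IDR summit 8049 bp away and no pooled summit at its start. The lack of an IDR summit does not show that binding is absent. Pooled summits lay within 500 bp of 51 precursors without an IDR summit there. The pooled list includes peaks with q values of up to 0.290, so a pooled summit does not by itself show binding.

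Protein-coding hosts were led by Btk, a tyrosine kinase whose exon holds mir-2b-1, with a summit of 1617.8 (816.4 and 804.6 in replicates 1 and 2) 158 bp upstream of a start and 19168 bp from the hairpin. Among hosts of intronic precursors the highest after CR31044 was Mob2, a co-activator of NDR kinases, with 1006.6 (mir-4968). It was followed by bun (834.7, mir-967), the phospholipase gene PAPLA1 (798.9, mir-4984), the transporter gene MRP (794.5, mir-9382), jigr1 (716.8, mir-92a and mir-92b) and the cGMP-dependent kinase gene for (701.4, mir-4972). RpS23, a ribosomal protein gene, had 676.0 (394.9 and 279.7) at 8 bp upstream of its start and 771 bp upstream of mir-308. The remaining hosts among the highest 15 were CG7029 (596.1, mir-4953), Pfas (591.8), CG3860 (580.1, mir-1009), the complex I subunit gene ND-23 (481.7, mir-4911), spi (471.9), Abca3 (467.8, mir-1007 and mir-2535b) and tacc (444.5, mir-9384). Those 15 ranged from 444.5 to 3386.0 in signal and most of their precursors lay over 2 kb from the summit.

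Hosts of other named miRNAs were weaker. HnRNP-K, the host of mir-7, which acts in photoreceptor differentiation, had a start-site summit of 157.8 at 18582 bp from the hairpin. CG42524, which holds mir-278, a miRNA of energy balance, had one of 242.0 at 43179 bp. E2f1, the cell cycle transcription factor whose intron holds mir-11, had no IDR summit within 500 bp of a start, and its nearest lay at 1799 bp.

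Other loci with an IDR summit 0 to 2 kb upstream but none within 500 bp, some of them already named above with a host or for their distance, included mir-4981 (595.0, 840 bp), mir-967 (531.9, 1319 bp), mir-4911 (481.7, 888 bp), mir-274 (328.3, 506 bp), mir-2496 (324.1, 707 bp), mir-2497 (300.3, 1077 bp), mir-2283 (298.5, 1528 bp), mir-281-1 (275.4, 1631 bp), mir-375 (274.6, 705 bp) and mir-9379 (221.2, 1373 bp). Each value is the pooled signal of the strongest such summit, with its distance from the hairpin. At mir-967, mir-4911, mir-2497 and mir-2283 the summit was at the start site of the host gene, which lay 11 to 163 bp away. Of the 53 summits in the upstream window 33 (62.3%) were at promoters, and for 37 of them the nearest start site belonged to the precursor's own host.

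Seed families were compared after the values were seen, so their counts are a description. The family with the seed AUCACAG, which includes mir-2, mir-6, mir-11, mir-13 and mir-308 and represses the cell death genes reaper, grim and sickle, had an IDR summit within 500 bp or 2 kb upstream at 8 of 14 precursors, against 57 of all 260. These 8 share 4 summits, so they are not 8 separate observations. The 3 precursors in an intron of spi, which encodes a ligand of the epidermal growth factor receptor, share a summit of 178.4 (65.2 and 97.5 in replicates 1 and 2), 684 bp upstream of mir-2b-2. That summit lay 1662 bp past a start of spi, apart from the 471.9 summit at the start itself. The 3 in CR45911 (mir-2c, mir-13a and mir-13b-1) share a summit of 157.5 (107.1 and 56.8) inside the transcript. The intronic mir-13b-2 lay 1714 bp from a summit of 158.1 (91.4 and 86.2) at the start of CCT2, a chaperonin subunit, and mir-308 lay near that of RpS23. The family with the seed AUUGCAC (mir-92a, mir-92b and mir-310 to mir-313) had none at 6 precursors. Of the latter, mir-92a missed the window by lying 565 bp from a summit on its downstream side.

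Sequence words were counted at the 57 summits and at all IDR summits, with no test of the difference. Within 100 bp of the summit, TATCGATA occurred at 2 of the 57 (3.51%, against 5.69% of all 6486 IDR summits) and GGTCACACT, known as Motif 1, at 1 (1.75% against 2.93%). CAGCTG, an E-box, occurred at 8 (14.0% against 10.8%), TATAAA at 15 (26.3% against 34.0%) and GAGAGA at 5 (8.77% against 10.5%). TATCGATA was at the CCT2 start and at the summit 994 bp upstream of mir-318, which lay 23 bp from the start of CG6325. Of the 11 summits at starts of lncRNA hosts, 2 held TATAAA, 3 held GAGAGA and 0 held each of the other words, and a count of 0 of 11 allows a share of up to 27.3%. A match is a word in the window and says nothing about the factor.

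Precursors that fill an intron were counted apart, since such hairpins can be freed by splicing without Drosha. In 33 intronic precursors both ends lay within 5 bp of the ends of an intron. Only precursors classed as intronic were examined. A hairpin classed as exonic because its annotation runs past an intron is thus not among the 33. None of the 33 had an IDR summit within 500 bp, against 26.3% of all genes. A count of 0 of 33 allows a share of up to 9.09%. The 8.04% of all 112 intronic precursors includes these 33, and all 9 with such a summit were among the other intronic precursors. The share among those others alone is therefore higher than 8.04% and was not computed, so the 33 are not compared with them. An IDR summit lay 0 to 2 kb upstream at 4 (12.1%, against 28.8% of all genes and 21.4% of all intronic precursors, the 33 included). A pooled summit lay within 500 bp at 10 (30.3%, against 55.0% of all genes and 32.1% of all intronic precursors, the 33 included). For 13 of the 33 (39.4%, 22.9% to 57.9%) the host had a start-site IDR summit, near the 33.3% of all protein-coding genes. Of the 13, 2 share the host Abca3. The hosts include VhaSFD (mir-1006), Atet (mir-1005) and wts, a Hippo pathway kinase (mir-1013). Pooled-only summits within 500 bp, in precursors with no IDR summit in either window, reached 129.0 at mir-1000, 128.3 at mir-34, 124.8 at mir-3645, 121.6 at mir-92b and 95.9 at mir-995, against a lowest IDR signal of 142.0. Next were mir-4942 (93.8), mir-4918 (90.0), mir-958 (75.7), mir-986 (72.5), mir-4986 (62.3), mir-2491 (54.3), mir-277 (52.9) and the mir-310, mir-311, mir-312 and mir-313 precursors, which share a summit of 52.5. The summits at mir-4918 and at the mir-310 cluster overlapped a peak in replicate 2 and none in replicate 1.

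Genes that make and use miRNAs were read at their own start sites. Of 19 listed, 11 (57.9%, 33.5% to 79.7%) had an IDR summit within 500 bp, against 33.3% of protein-coding genes, and all 19 had a pooled summit there, against 62.9% of protein-coding genes. The genes without an IDR summit there included the nuclear processing pair drosha and pasha and the dicer gene Dcr-1. An IDR summit of 243.3 lay at loqs, the partner of Dicer-1. At gw, which encodes GW182, the signal was 617.4 (380.4 and 241.0 in replicates 1 and 2), and at AGO1 it was 538.5 (297.1 and 252.8). Of the cap-binding and associated genes, Cbp20 had 504.0 and Ars2 had 206.6, and Cbp80 had no IDR summit. The export receptor gene Ranbp21 had 282.4 and the debranching enzyme gene ldbr 295.5. Of the genes that act on the 3' ends of small RNAs, Nbr had 189.4, and Hen1, Tailor and Dis3l2 had no IDR summit within 500 bp. The nearest to Tailor lay at 565 bp. In the deadenylase complex Not1 (175.7), Pop2 (233.1) and twin (244.3) had an IDR summit, and the decapping activator me31B did not. Among the genes of the related small interfering RNA pathway, r2d2 had 818.3 (499.5 and 320.4), AGO2 had 230.3 and Dcr-2 had no IDR summit.

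By chromosome arm, IDR summits within 2 kb upstream were found at 10 of 31 precursors on 3L (32.3%, 16.7% to 51.4%), 15 of 58 on 3R (25.9%), 12 of 56 on 2L (21.4%), 11 of 55 on 2R (20.0%), 6 of 58 on X (10.3%, 3.89% to 21.2%) and 0 of 2 on arm 4. Over all arms the share was 28.8% of all genes, and the share of all genes on each arm was not computed. An arm-wide density of summits can therefore not be told apart from a trait of the precursors. The 58 precursors on X form 39 loci, and the 31 on 3L form 31 loci. The intervals of 3L and X overlapped, and the difference was not tested. Repeated sequence was limited: in 246 precursors no 31-base word within 250 bp recurred elsewhere in the assembly. The 3 copies of mir-10404 on X had over 50% of such words repeated, with no IDR summit within 500 bp. How reads from such copies were placed is not stated in the sources used here, so nothing is read from the lack of a summit there.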

How the data were processed

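Per the labels, chromatin of the fusion line was sheared by sonication and precipitated with an anti-GFP antibody. Peaks were called per replicate and on the pooled replicates against a control, per the deposited descriptions. The control was not analysed here, and the sources used here do not name the IDR threshold, peak caller or aligner. The lists deposited by the authors give each peak's signal, of unstated scale, and the −log10 of its q value. All q values in the IDR list are at most 4.83e-05, and those in the pooled list reach 0.290. Signal was used for strength. The IDR list is the top of the pooled list by signal, so it is a threshold and not a separate measurement. Read depth is unknown.

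Summits were computed as peak start plus summit offset, counted from 1, and set against the 5' end of each precursor on its strand. Genes came from Ensembl release 115, and sequences from the RefSeq Release 6 assembly, in which all 260 precursors had the same position. An intronic precursor lies in an intron of a longer gene on its strand. A host counts as having a summit within 500 bp of any of its start sites. The members and lists were chosen with earlier results of these data known. Named precursors are those with an IDR summit within 500 bp, the 15 strongest further loci with 1 upstream, the 15 strongest pooled-only precursors, the 5 just outside 500 bp, a fixed list of well-known miRNAs, and the 15 strongest hosts of intronic precursors. Other names (seed families, lncRNA hosts, examples in sets) were chosen after their values were seen. No test was made, since there was 1 group. Intervals are exact 95% Clopper-Pearson intervals for counting error and treat precursors as independent, although clustered ones share summits. The limit for a count of 0 is 3 counts. Distances and counts were checked on planted summits. The scripts ran in Python 3.11.15 with pandas 2.3.3, numpy 2.4.6, matplotlib 3.10.9 and scipy 1.17.1.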

Additional observations from a re-analysis of the deposited data

How the results depend on the processing

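Of 52 alternatives, 33 left the value within 1.5 times of that reported (for the median distance, within the SD between the replicates) and 19 moved it. With the 3243 strongest IDR summits alone, 6 precursors had a summit within 500 bp, 23 had one 0 to 2 kb upstream and the median distance was 11556 bp. With that list 5 intronic and 1 other precursor were within 500 bp, 28 intronic precursors had a host with a start-site summit, and 5 pathway genes had one. A window of 250 bp gave 11 precursors in the IDR list (5 intronic and 6 other) and 39 in the pooled list, and 1000 bp gave 39 in the IDR list (18 intronic and 21 other). Upstream windows of 1 kb and 5 kb gave 32 and 92 precursors. Counting loci gave a median of 5223 bp. Using the strongest 6486 peaks of 1 replicate alone gave 18 to 19 precursors within 500 bp, 48 to 52 upstream, and medians of 6306 to 6460 bp. No paired analysis was possible because there was 1 group. The counts follow the window and the threshold by construction. Read depth, and hence the smallest detectable peak, is unknown.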
